A study of Drosophila melanogaster with 10 samples.

Results

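Testes of Drosophila melanogaster males in which B9d1 was knocked down in the germ line were compared with wild-type (WT) testes across all measured genes. The comparison takes the 2 libraries titled B9d1 KD and the 2 titled WT, which are 4 of the 10 libraries of the series, and it was chosen by these titles and not by any measured value. B9d1 KD flies had the genotype w;B9d1RNAi;bam-Gal4, UAS-dicer2. They were grown at 22°C for 3 days and then at 30°C for 8 days, and the labels describe their testes as enriched for young spermatocytes. WT flies, with the genotype given only as WT, were grown at 22°C for 10 days, and their testes held all stages of male germ cells. A library held the RNA of 100 testis pairs, dissected from males less than 2 days old. The other 3 groups are used only for their levels. They are an RNAi knockdown labelled Tektin-C KD and one labelled Klp59D KD, with the same driver, Dicer-2 transgene and temperatures as B9d1 KD, and the sa-/- mutant, grown at 22°C for 12 days, all 3 said to be enriched for mature spermatocytes. The driver bam-Gal4 acts in late spermatogonia and not in the somatic cells of the testis, so the knockdown starts before the spermatocyte stage and spares the soma. Knockdown, driver, extra Dicer-2, temperature, days of growth and the stages present differ together between B9d1 KD and WT and cannot be told apart.

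B9d1 belongs to the B9 complex of the ciliary transition zone, the gate between the cell and its cilium. In fly testes, spermatocytes carry cilia-like outgrowths on their centrioles throughout the meiotic prophase, a long G2 in which the cells grow greatly and transcribe most of what the later sperm will need. That growth depends on ribosomes, whose RNA is made and modified in the nucleolus with the help of small nucleolar RNAs (snoRNAs). The title of the series links B9d1 to cell growth and to ribosome production in this phase, and the gene groups below are ordered from the cilium to the ribosome, then through the germ cell stages to the other tissues.

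Reads were counted per gene by the authors, and the libraries held 18139629 and 20226197 counts in WT and 24138347 and 26851858 in B9d1 KD. The 2 libraries of a group differed by hardly more than sampling noise. Between them 5.42% of genes with 50 to 5000 counts in WT and 5.29% in B9d1 KD lay outside the 95% binomial range, against 88.3% between B9d1 KD and WT. They were therefore summed and counted as 1 sample per group, so no difference below has a replicate check and no p-value is given. Levels are counts per 1e6 scaled counts (CPM), and the 4 libraries are given one by one only to show the counting error. Statements below that the libraries of the groups lay apart or did not overlap say no more than this and are not replicate support. Square brackets hold exact 95% intervals of a fold, which cover counting error only, and a gene is called higher or lower when its log2 fold, computed with a prior count of 2, is at least 1 or at most -1. The members named for a gene list are mostly those with its largest folds in either direction, so they are not typical of it. Levels in the other 3 groups are listed in the order labelled Tektin-C KD, labelled Klp59D KD and sa mutant. Those labels need care, because the transcript of Klp59D was at 29.7 CPM in the group labelled Tektin-C KD and at 335 CPM in that labelled Klp59D KD, whereas the Tektin-C transcript had 203 and 12.1 CPM in the same order. In whole testes, fewer cells of a type and less RNA per cell cannot be told apart.

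The B9d1 transcript itself (FBgn0038342; dm6 3R, 15481906 to 15482904, plus strand, protein-coding) stood at 109 and 108 CPM in the WT libraries and 8.91 and 9.91 CPM in the B9d1 KD libraries. The libraries of the groups did not overlap, and the level in B9d1 KD was 11.5-fold [10.5 to 12.6] lower. In the other 3 groups it was at 155, 171 and 194 CPM, all above WT. B9d1 was also the only gene at least 4-fold below each of the other 4 groups, out of 6518 genes with at least 10 CPM in all of those, a share of 0.0153%.

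None of the other measured transition zone genes was lower, and several were higher. Of 14 names listed for this compartment, 10 matched an identifier and 8 were measured, of which 4 were at least 2-fold higher in B9d1 KD and 1, B9d1, was lower. Over all 13831 measured genes, 27.3% were higher and 25.7% lower. The list had a median log2 fold of 1.20 against 0.08 for all genes. When libraries are scaled by their size alone, the median of all genes is 0.65, so folds here are relative to the scaled totals. Summed with B9d1 included, the list was at 636 and 636 CPM in B9d1 KD against 340 and 338 CPM in WT. In the other 3 groups the sum was 665, 642 and 480 CPM, of which B9d1 gave 155, 171 and 194 CPM. A sum above WT was thus not confined to B9d1 KD. Mks1, a B9-domain partner of B9d1, was at 4.01 and 3.99 CPM in the WT libraries and 25.3 and 24.8 CPM in the B9d1 KD libraries, which is 6.26-fold [5.18 to 7.64] higher. Cc2d2a, another component of the same complex, was at 98.6 and 98.6 CPM in B9d1 KD against 24.9 and 23.0 CPM in WT. Cep290, which bridges the ciliary membrane and the microtubules, was at 208 and 206 CPM in B9d1 KD against 75.2 and 73.7 CPM in WT. In all 3 the 2 B9d1 KD libraries lay well above both WT libraries. The coiled-coil gene dila was at 164 against 42.5 CPM. Fam92 and Cby, which act with it at the base of the cilium, were at 72.1 against 38.2 CPM and 16.3 against 8.93 CPM, just under the 2-fold line. Cep89 was at 43.4 against 38.1 CPM. The others of the B9 complex could not be followed, because B9d2 and tctn are listed at 0 counts in all 10 libraries, and the annotation gives these 2 genes identical coordinates.

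**Figure D1:**
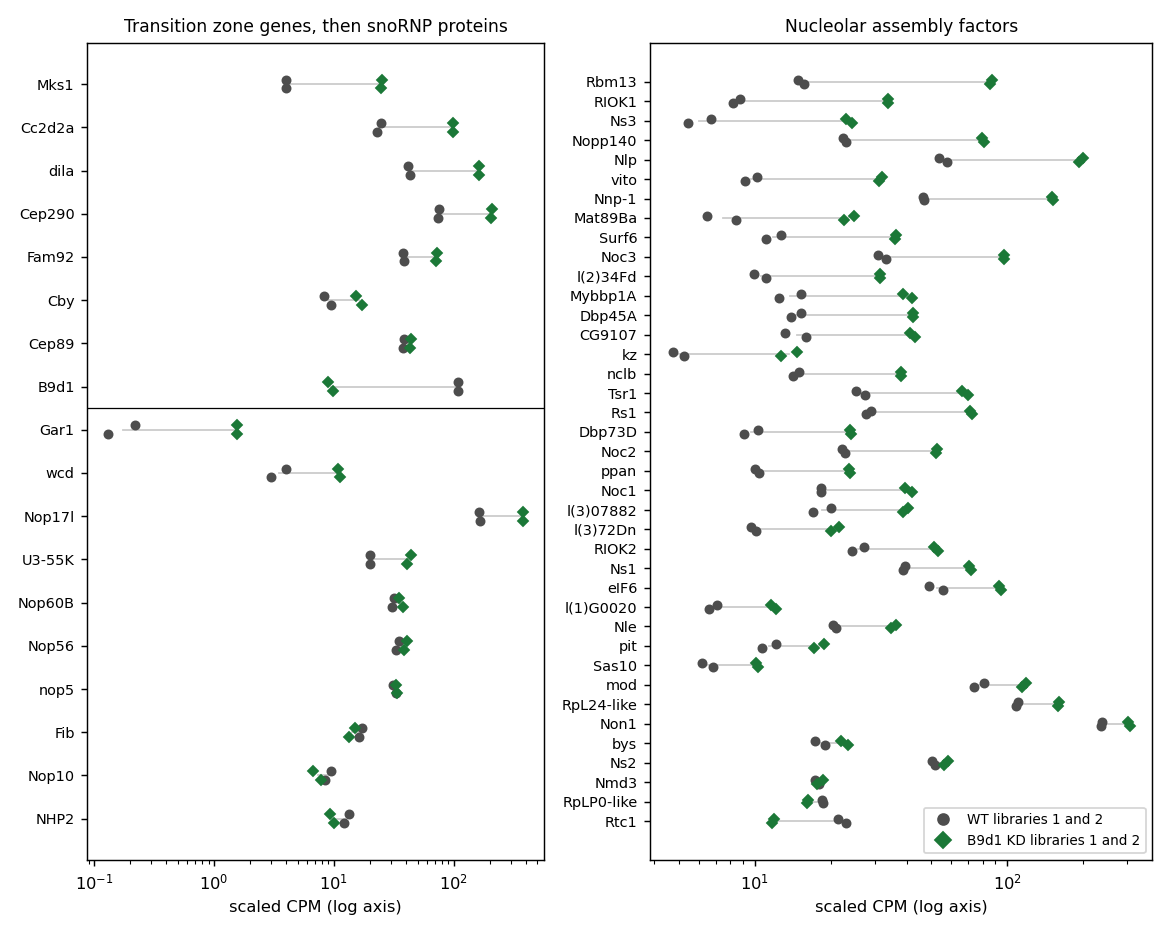
Scaled CPM (log axis) of each gene in the 2 WT libraries (circles) and the 2 B9d1 KD libraries (diamonds), with a grey line joining the group levels; left, transition zone genes and the proteins of snoRNA particles, right, nucleolar assembly factors. B9d1 is the 1 transition zone gene far lower in B9d1 KD, Mks1, Cc2d2a, dila and Cep290 are higher, and most nucleolar factors are higher while the core snoRNA particle proteins Fib, Nop56, nop5 and Nop60B lie close to WT.

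Genes of cilium assembly and of the centriole were also higher in part. Of the intraflagellar transport and BBSome genes, which carry cargo along cilia, 10 of 22 were higher and none was lower (median 0.97). Of the higher ones only rempA, Kap3 and IFT54 reached 5 CPM in either group, so most of this count rests on low levels. The retrograde transport gene rempA was at 62.6 against 17.7 CPM. The ciliary transcription factor gene Rfx, at 18.9 against 9.72 CPM, stayed just under the 2-fold line. Of the centriole and basal body genes 11 of 18 were higher and none lower (median 1.17). These genes summed to 2823 and 2822 CPM in B9d1 KD against 1513 and 1490 CPM in WT. They were above WT in the other 3 groups too, at 3078, 2500 and 1950 CPM. The elongation factor of centrioles ana1 was at 243 and 244 CPM in B9d1 KD against 46.1 and 48.2 CPM in WT, 5.17-fold [4.89 to 5.47] higher, and asterless (asl), which recruits the duplication kinase, was at 468 and 461 CPM in B9d1 KD against 102 and 100.2 CPM in WT, 4.59-fold [4.41 to 4.77] higher. In neither gene did the groups overlap. The basal body gene unc was at 72.01 against 15.8 CPM and the pericentriolar scaffold gene spd-2 at 76.3 against 18.1 CPM.

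Of 9 genes of the gamma-tubulin ring complex, which nucleates microtubules, 6 were higher and 1 lower. The 6 were the general members, among them Grip128 at 138 against 19.5 CPM, Grip163 at 52.5 against 12.3 CPM and Grip91 at 54.1 against 17.1 CPM. The lower gene was the testis paralog t-Grip84, with 698 and 684 CPM in the WT libraries and 210.3 and 209 CPM in the B9d1 KD libraries, which is 3.30-fold [3.22 to 3.37] lower, while its general counterpart Grip84 was at 106 against 41.1 CPM. The other testis paralogs did not pass the 2-fold line, with t-Grip91 at 325 against 242 CPM and t-Grip128 at 18.1 against 30.6 CPM, both chosen after their values had been seen. Of 8 tubulin genes 4 were lower and 3 higher. The lowest fold was that of betaTub97EF, with 42.7 and 41.7 CPM in the WT libraries and 3.98 and 4.30 CPM in the B9d1 KD libraries. The testis beta-tubulin betaTub85D, which builds the meiotic spindle and the sperm tail, was at 3730.1 and 3723 CPM in the WT libraries and 1144 and 1156 CPM in the B9d1 KD libraries. The alpha-tubulins alphaTub85E and alphaTub84D were at 116 against 316 CPM and 114.7 against 257 CPM, alphaTub84B was at 1266 against 1829.8 CPM, and gammaTub23C was at 39.9 against 18.5 CPM. Axoneme genes had a median of 0.08, equal to that of all genes, with both directions present. Ccdc114, a dynein docking factor in vertebrates, was at 63.5 and 67.0 CPM in B9d1 KD against 0.802 and 0.458 CPM in WT, and the dynein light chain gene robl37BC at 33.5 and 34.8 CPM in B9d1 KD against 767 and 765 CPM in WT.

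The size of the difference over all genes was large. Between the groups 7333 genes differed by 2-fold or more, 53.0% of those measured. Of these 3775 were higher and 3558 lower in B9d1 KD, and 1475 were at least 4-fold higher and 1580 at least 4-fold lower. At 16-fold or more there were 188 higher and 196 lower. Genes with many counts were mostly lower. Of 308 protein-coding genes above 500 CPM on average over both groups, 51.0% were lower and 1.95% higher. The 10 genes with the most counts held 11.2% of all counts in each WT library and 3.18% and 3.19% in B9d1 KD, and 1032 genes were needed to reach 50% of the counts in B9d1 KD against 440 and 438 in WT.

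**Figure D2:**
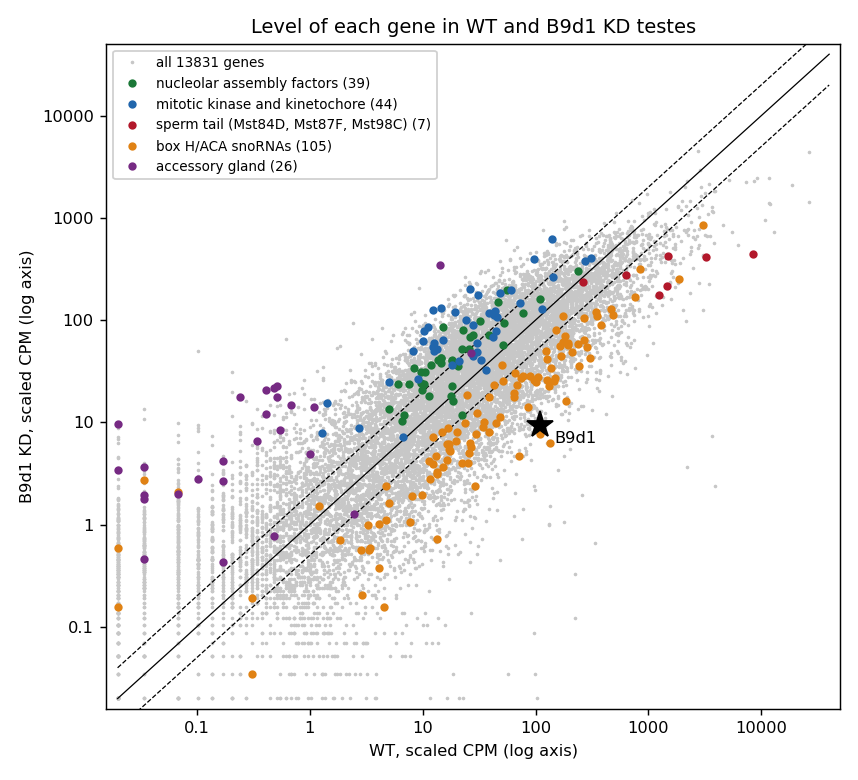
Level of each of 13831 genes in B9d1 KD (vertical) against WT (horizontal), both in scaled CPM on log axes, with the line of equality and the 2-fold lines (dashed). Nucleolar factors and mitotic kinase and kinetochore genes lie mostly above the lines, sperm tail genes and box H/ACA snoRNAs mostly below, accessory gland genes far above, and B9d1 (star) below.

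The largest single contributions came from few transcripts. CG10252 was at 26705 and 26414 CPM in the WT libraries and 1442 and 1427 CPM in the B9d1 KD libraries, CG31226 at 719.7 against 12913 CPM, and Rab3-GAP, a regulator of vesicle release in neurons, at 1401 against 11617 CPM. Together with S-Lap1 and S-Lap7, which encode leucyl aminopeptidases of sperm, they were the nuclear genes among the 10 with the most counts in WT. In B9d1 KD the most counts over both libraries fell to Hsp83, the fly Hsp90, at 4498 and 4417 CPM in B9d1 KD against 2788 and 2697 CPM in WT. In the second B9d1 KD library mt:CoI, at 4443 CPM, was just above it. The genes that gained most CPM after it included the ubiquitin ligase gene ctrip (1492 against 721 CPM), ssp3 (928 against 180.0 CPM), the RNA-binding protein gene sm (1704 against 963 CPM) and Trf2, a TATA-binding protein relative (779 against 178 CPM). For all 4 the order of the groups was the same in every library.

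Among genes of ribosome production the nucleolar assembly factors stood out from the ribosomal proteins. Of 39 genes of the small-subunit processome and of nucleolar assembly, 25 were at least 2-fold higher and none was lower, with a median log2 fold of 1.22. Their summed level was 2312 and 2311 CPM in B9d1 KD against 1149 and 1147 CPM in WT. In the other 3 groups it was 1264, 1628 and 2412 CPM, so the sa mutant was as high as B9d1 KD. Rbm13, a nucleolar maturation factor in other species, was at 14.8 and 15.6 CPM in the WT libraries and 87.2 and 85.8 CPM in the B9d1 KD libraries, 5.68-fold [5.15 to 6.27] higher. The groups did not overlap, and the other 3 groups had 18.2, 26.9 and 51.0 CPM. RIOK1, a kinase of the late 40S particle, was at 33.9 and 33.9 CPM in B9d1 KD against 8.75 and 8.17 CPM in WT, the GTPase gene Ns3 at 22.9 and 24.3 CPM in B9d1 KD against 6.71 and 5.43 CPM in WT, and the nucleolar phosphoprotein gene Nopp140 at 79.4 and 81.1 CPM in B9d1 KD against 22.3 and 23.0 CPM in WT. In these 3 genes too, both B9d1 KD libraries lay above both WT libraries. Nlp, a nucleoplasmin that holds centromeres at the nucleolus, was at 197 against 55.9 CPM, and the large-subunit factor vito at 31.4 against 9.65 CPM.

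The proteins that sit on the snoRNAs themselves differed less. All 11 listed snoRNP genes matched an identifier and 10 were measured, of which 4 were higher and none lower, with a median of 0.21. The 4 core genes of box C/D particles and of the H/ACA pseudouridine synthase lay near WT. Fib, the methyltransferase fibrillarin, was at 17.4 and 16.2 CPM in the WT libraries and 15.1 and 13.5 CPM in the B9d1 KD libraries. Nop56 was at 39.3 against 34.1 CPM and nop5 at 33.3 against 31.9 CPM, and the synthase gene Nop60B was at 36.3 against 31.2 CPM. The H/ACA partners NHP2 and Nop10 were at 9.70 against 12.8 CPM and 7.33 against 8.96 CPM, and Gar1, which had few reads, was at 1.56 against 0.172 CPM. The higher ones apart from Gar1 were assembly or processome factors, namely wcd at 11.03 against 3.48 CPM, Nop17l at 380.1 against 165 CPM and U3-55K at 42.3 against 19.996 CPM.

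RNA polymerase I, which transcribes the ribosomal RNA genes, was split. Of 8 subunit and initiation factor genes 4 were higher and 2 were lower, although the list median was 1.02. The largest subunit gene Polr1A was at 67.5 and 65.0 CPM in B9d1 KD against 29.8 and 26.4 CPM in WT. Polr1C, a subunit shared with RNA polymerase III, was at 104 and 103 CPM in the WT libraries and 29.4 and 29.7 CPM in the B9d1 KD libraries, which is 3.51-fold [3.31 to 3.73] lower, and Polr1E was at 142 and 136 CPM in the WT libraries and 60.6 and 59.8 CPM in the B9d1 KD libraries, 2.31-fold [2.205 to 2.42] lower. Of 12 RNA polymerase II subunit genes 7 were higher, and of 13 genes listed for polymerase III, without the shared Polr1C, 6 were higher, with none lower in either list. Polr2C was at 60.8 against 10.7 CPM and Polr3B at 56.7 against 20.4 CPM. In the RNA exosome, which trims ribosomal RNA precursors, 5 of 11 genes were higher, with Rrp45 at 26.04 against 4.999 CPM and the helicase gene Mtr4 at 78.3 against 26.2 CPM.

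Cytosolic ribosomal protein genes stayed near WT. Of 75 measured, none was higher and 3 were lower, and the median was -0.18, which turns to 0.41 with library size alone. The 3 lower genes were RpL22 at 16.2 against 55.1 CPM, RpLP2 at 1087 against 3366 CPM and RpL41 at 337 against 686 CPM. Their paralogs were spread wider, with 3 of 9 lower and 2 higher, and their median of -0.40 also changes sign with library size alone, to 0.19. RpL22-like, the germ-line counterpart of RpL22, was at 151 and 147 CPM in B9d1 KD against 55.5 and 58.5 CPM in WT and differed in the opposite direction. RpS28a was at 0.986 and 1.31 CPM in B9d1 KD against 15.02 and 13.9 CPM in WT and RpL10Aa at 138 against 334 CPM. Copies this alike can share reads, and how the authors assigned such reads is not given in the sources used here. Mitochondrial ribosomal proteins behaved otherwise, since 27 of 70 were higher and 1 lower (median 0.84). Among them mRpL50 was at 44.2 against 6.24 CPM, mRpL37 at 41.9 against 6.17 CPM and mRpS29 at 118 against 24.4 CPM.

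Genes of tRNA charging were higher in part, while for translation initiation the share of higher genes lay below the 27.3% of all genes. Of 17 cytosolic aminoacyl-tRNA synthetase genes, 7 were higher and none lower (median 0.98), with IleRS at 126 against 40.8 CPM and GluProRS at 127 against 48.7 CPM. Of their 14 mitochondrial counterparts 5 were higher and none lower (median 0.84). Initiation factors had a median of 0.29, with 6 of 44 higher and 3 lower. The lower ones were eIF2A at 550.0 against 1731 CPM, eIF4E3 at 345 against 989.8 CPM and eIF4E4 at 324 against 882 CPM, of which the latter pair encodes testis-enriched cap-binding proteins. The 6 higher ones were eIF4E1, eIF4E6 and 4 of the 5 subunits of eIF2B, the factor that recharges eIF2 with GTP. Among these eIF2Balpha was at 46.5 and 46.8 CPM in B9d1 KD against 9.33 and 9.48 CPM in WT and eIF2Bepsilon at 47.1 and 46.7 CPM in B9d1 KD against 19.1 and 15.4 CPM in WT, so that both B9d1 KD libraries lay above both WT libraries. eIF4E6 was at 22.5 against 3.41 CPM. Of 6 elongation factor genes 1 was higher and none lower, and eEF2 was at 1417 and 1417 CPM in the WT libraries and 1220.1 and 1207 CPM in the B9d1 KD libraries. Of 27 genes of insulin, TOR and Myc growth signalling, 5 were higher and 2 lower (median 0.10). The higher share of 18.5% lay below the 27.3% of all genes, whose median was 0.08. The kinase gene mTor was at 81.3 against 29.8 CPM, its activator Rheb at 95.2 against 27.0 CPM, the inhibitor gene gig at 81.2 against 27.5 CPM and the insulin receptor substrate gene chico at 136 against 42.5 CPM. These few higher genes thus held both activators and an inhibitor of the pathway, and the list as a whole lay near all genes. The translation repressor Thor was at 2.65 against 6.72 CPM and the stress transcription factor gene REPTOR-BP at 7.11 against 32.2 CPM.

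The guide RNAs of the nucleolus stood in the opposite direction from its protein factors. Among box H/ACA snoRNAs, which guide pseudouridylation, 90 of 105 were at least 2-fold lower and 4 higher, with a median of -1.89. Their summed level was 3928 and 3996 CPM in B9d1 KD against 15098 and 15091 CPM in WT, and 6494, 5828 and 11609 CPM in the other 3 groups. Among box C/D snoRNAs, which guide 2'-O-methylation, 21 of 56 were lower and 1 was higher (median -0.72), and their summed level was 505 and 501.3 CPM in B9d1 KD against 1347 and 1341 CPM in WT. The other 3 groups had 1810.4, 1611 and 1195 CPM, so B9d1 KD was the lowest of the 5 groups in both sums. Among those reaching 5 CPM the lowest folds were those of snoRNA:Psi18S-640b, with 135 and 133 CPM in the WT libraries and 6.57 and 6.07 CPM in the B9d1 KD libraries, and snoRNA:Psi28S-2442a, with 13.6 and 13.2 CPM in the WT libraries and 0.730 and 0.722 CPM in the B9d1 KD libraries. Among box C/D snoRNAs, snoRNA:Me28S-A774a was at 56.6 and 54.0 CPM in the WT libraries and 8.11 and 6.96 CPM in the B9d1 KD libraries and snoRNA:Me28S-G764 at 74.1 against 328 CPM. With library size alone 69 H/ACA and 8 C/D snoRNAs were lower. These RNAs are short, with median lengths of 140 and 79 bases, and how much RNA of that size each extraction and library kept was not measured.

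Most fly snoRNAs are cut from introns of host genes, so each was set beside the gene that holds it on the same strand. Of 224 measured snoRNAs 202 lay in a measured host, in 73 host genes. The snoRNAs had a median log2 fold of -1.48 and their hosts one of 0.34, and 184 of the 202 snoRNAs had a lower fold than their host. Of the 143 lower snoRNAs, 15 had a host that was itself at least 2-fold lower, and 34 had a host that was at least 2-fold higher. RpS5a, which encodes a ribosomal protein, holds 14 snoRNAs, all of them lower with a median of -1.95, and was itself at -0.78. In the chromatin remodeller gene dom 12 of 15 snoRNAs were lower (median -1.74) at a host fold of 0.77, and in the splicing factor gene Hrb98DE all 7 were lower (median -1.98) at a host fold of 0.08. Of 6 noncoding host genes 3 were higher and none lower (median 1.02). Among them Uhg1 was at 78.2 and 77.8 CPM in B9d1 KD against 16.1 and 16.7 CPM in WT, a log2 fold of 2.24, while its 12 snoRNAs ranged from -1.29 to 1.62.

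The actin nucleation gene Arpc2 holds 17 snoRNAs of the Psi18S-525 and Psi18S-640 families, and these ranged from -4.40 to 5.20 at a host fold of 1.07. The 4 higher H/ACA snoRNAs of the whole list (Psi18S-525b, Psi18S-525c, Psi18S-525d and Psi18S-640a) all belong to these families of close copies. How reads that fit several copies were shared is not given in the sources used here, so single members of such families are uncertain.

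**Figure D3:**
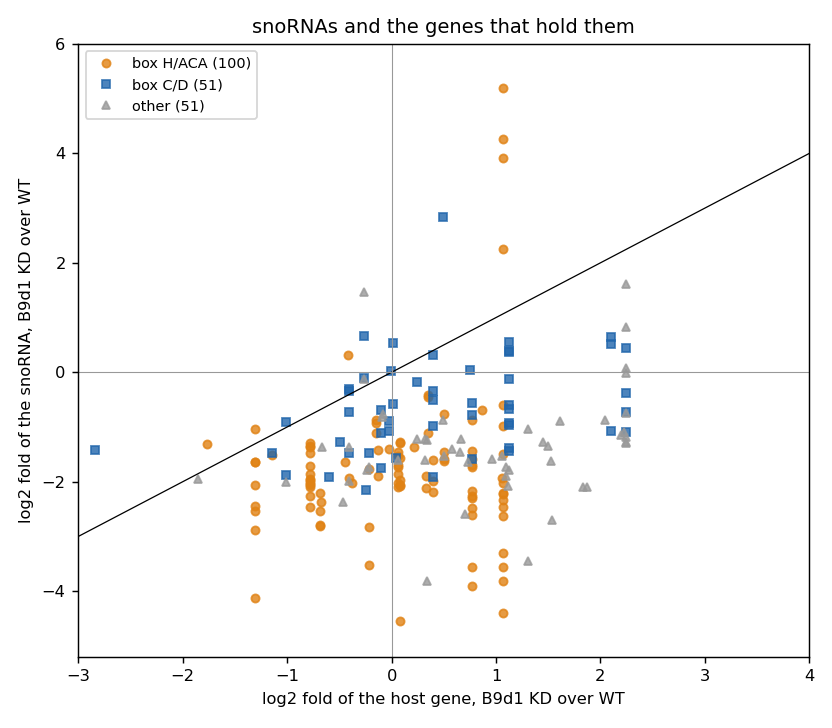
Log2 fold (B9d1 KD over WT) of each of 202 snoRNAs (vertical) against that of its host gene (horizontal), with the line of equality; circles are box H/ACA, squares box C/D and triangles other snoRNAs. Most points lie below the line and below 0 whether the host is lower or higher, and the 3 highest points share the host Arpc2.

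Genes of transport through the nuclear envelope were higher in more than the 27.3% of all genes. Of the nuclear pore protein genes 19 of 30 were higher and none was lower (median 1.32). Mgtor, the nuclear basket protein that also ties chromatin to pores, was at 114.9 and 117 CPM in the WT libraries and 761.96 and 761 CPM in the B9d1 KD libraries, 6.57-fold [6.35 to 6.81] higher, and Nup153, another basket protein, was at 202 and 204 CPM in B9d1 KD against 38.8 and 38.8 CPM in WT. Both genes were several times higher in each B9d1 KD library than in either WT library. Nup214 was at 220.5 against 42.4 CPM and Nup188 at 54.8 against 9.65 CPM. Of 19 importin and exportin genes, 10 were higher and none lower (median 1.08). The exportin gene emb was at 253 against 58.0 CPM and the mRNA export receptor gene sbr at 189 against 54.6 CPM.

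**Figure D4:**
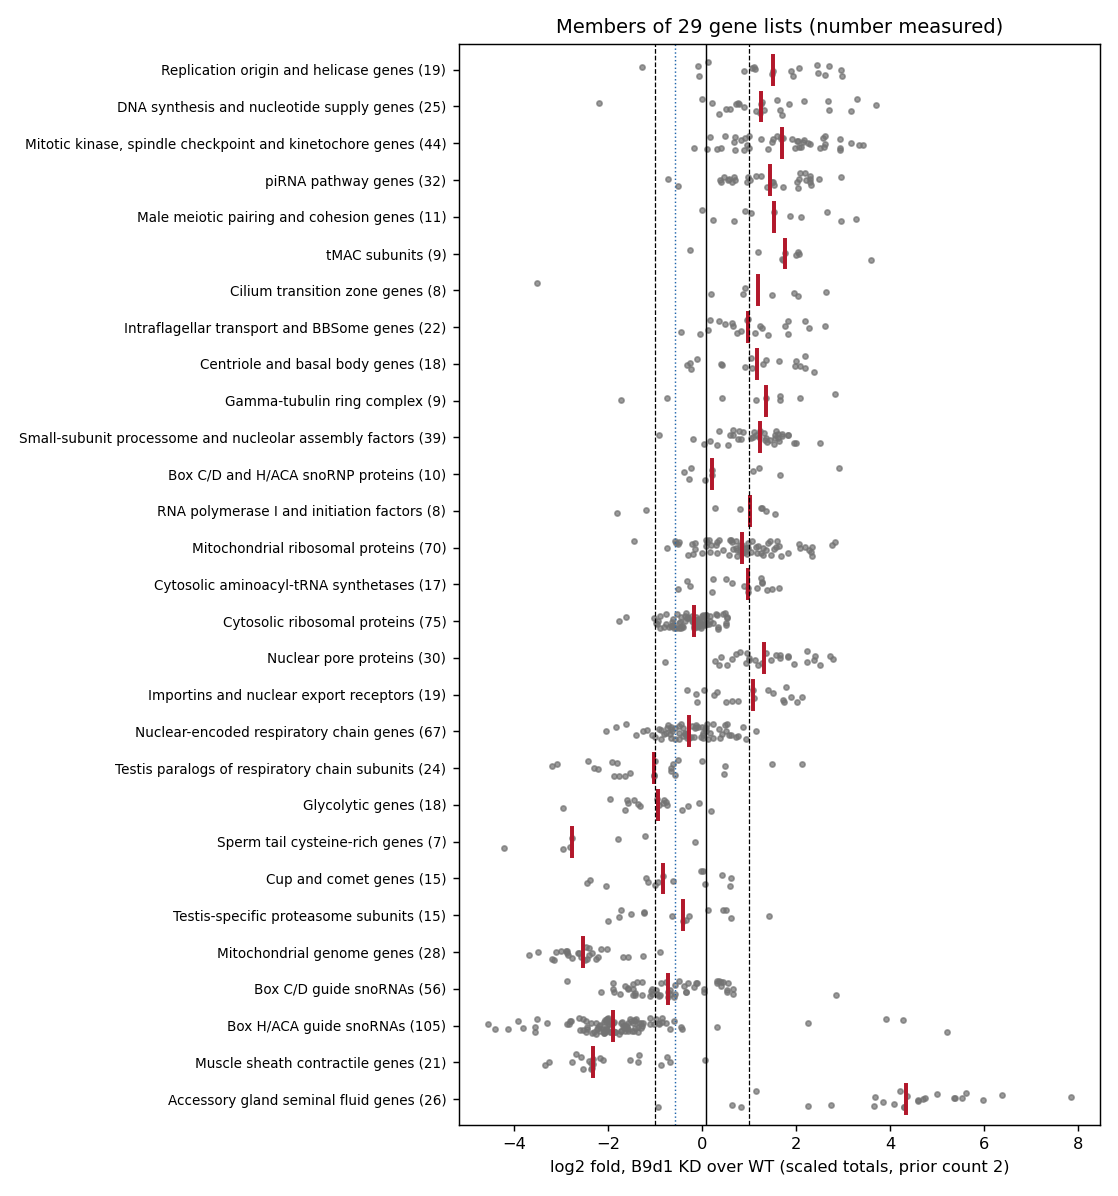
Log2 fold (B9d1 KD over WT) of every measured member (grey points) of 29 gene lists, with each list's median (red bar), the median of all genes (solid line), the 2-fold lines (dashed) and the place where 0 would fall with library size alone (dotted). Early germ-line, cell cycle and nucleolar lists have medians above 1 or near it, cytosolic ribosomal proteins cluster about 0, and mitochondrial genome genes, H/ACA snoRNAs, sperm tail and muscle genes lie below.

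Genes of dividing and early germ cells were mostly higher. Of 44 mitotic kinase, spindle checkpoint and kinetochore genes, 30 were higher and none lower (median 1.70). Summed, they were at 5227 and 5241 CPM in B9d1 KD against 1999.5 and 2004 CPM in WT. The other 3 groups were about as high as B9d1 KD, at 5191, 4914 and 5009 CPM, so this difference from WT was shared by all of them. The separase gene Sse was at 14.8 and 16.3 CPM in B9d1 KD against 1.39 and 1.44 CPM in WT, the spindle motor gene Klp61F at 127 and 125 CPM in B9d1 KD against 11.7 and 13.1 CPM in WT and the centromere gene Cenp-C at 132 and 132 CPM in B9d1 KD against 15.9 and 13.5 CPM in WT. In each of these the groups were far apart. The checkpoint gene mad2 was at 85.4 against 11.2 CPM and the kinesin gene pav at 78.9 against 10.4 CPM. Of 19 replication origin and helicase genes, 14 were higher and 1 lower (median 1.51), with the licensing factor gene dup at 60.2 against 7.62 CPM and Mcm5 at 41.7 against 5.38 CPM. The sum of this list was 488 and 482 CPM in B9d1 KD against 199 and 197 CPM in WT. In the other 3 groups it was also above WT, at 323, 375 and 365 CPM. Among 25 DNA synthesis genes 15 were higher. The 1 lower gene was PolE2, at 31.4 and 30.6 CPM in the WT libraries and 6.24 and 7.22 CPM in the B9d1 KD libraries. The polymerase alpha gene PolA1 was at 79.7 and 78.5 CPM in B9d1 KD against 8.31 and 9.22 CPM in WT, and dap, the cyclin-dependent kinase inhibitor that stops the G1 to S step, at 61.9 and 64.3 CPM in B9d1 KD against 9.19 and 10.2 CPM in WT.

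Transposon defence by piRNAs is active in spermatogonia and early spermatocytes, and 20 of 32 of its genes were higher and none lower (median 1.43). Together they were at 2492 and 2479 CPM in B9d1 KD against 1381 and 1357 CPM in WT. The other 3 groups were above WT too, at 1841, 2066 and 1987 CPM. The heterochromatin protein gene rhi, which marks piRNA clusters, was at 12.7 and 14.0 CPM in B9d1 KD against 1.60 and 1.77 CPM in WT. The silencing gene Panx was at 90.5 against 18.2 CPM, the Tudor domain gene qin at 89.2 against 18.2 CPM and csul, the methyltransferase of Piwi proteins, at 23.2 against 4.14 CPM. Among 15 spermatogonial genes 8 were higher and 1 lower, with bam, the switch out of the spermatogonial divisions, at 27.9 and 26.3 CPM in B9d1 KD against 4.89 and 6.87 CPM in WT. The transcription factor gene chinmo was at 456 against 90.0 CPM. A pair of genes named in the B9d1 KD genotype was chosen after their values had been seen. Dcr-2, also carried as the UAS-dicer2 transgene, was at 196 and 189 CPM in B9d1 KD against 141 and 143 CPM in WT, with 90.5, 102 and 96.1 CPM in the other 3 groups, and the eye colour gene white (w), used as a transgene marker, was at 60.5 and 58.2 CPM in B9d1 KD against 27.3 and 29.2 CPM in WT.

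Genes of the meiotic prophase were higher as well. Of the pairing and cohesion genes 7 of 11 were higher and none lower (median 1.54). Their sum was 1074 and 1071 CPM in B9d1 KD against 674 and 661 CPM in WT, and 1457, 1057 and 941 CPM in the other 3 groups. The cohesin genes SA2 and sunn were at 71.2 and 71.2 CPM in B9d1 KD against 7.66 and 6.997 CPM in WT and at 17.5 against 2.24 CPM, and SMC1 at 169.6 against 39.5 CPM. Entry into the meiotic division rests on translational timing factors, and 6 of 11 such genes were higher. The kinase gene gwl was at 71.3 against 12.7 CPM, the cyclin gene CycB at 198 against 60.2 CPM and the meiotic phosphatase gene twe at 424 and 421 CPM in B9d1 KD against 163 and 168 CPM in WT. Of the spermatocyte transcription machinery, 8 of 9 tMAC genes, 3 of 5 testis TAFs and 4 of 5 testis bromodomain and Plus3 genes were higher, with none lower. The tMAC gene wuc was at 204 against 51.0 CPM, the TAF gene nht at 49.2 against 16.4 CPM and tbrd-3 at 44.4 against 9.205 CPM. Of 6 repressors that keep spermatocytes from transcribing genes of other tissues 4 were higher, including kmg at 135 and 134 CPM in B9d1 KD against 22.8 and 21.4 CPM in WT and dany at 40.3 against 9.10 CPM.

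Dosage compensation genes, which act on the X chromosome of somatic male cells, split between proteins and RNA, with 4 of 8 higher and 1 lower. The acetyltransferase gene mof was at 76.6 and 76.7 CPM in B9d1 KD against 15.02 and 15.4 CPM in WT, msl-3 at 97.7 against 20.6 CPM and msl-1 at 107 against 24.9 CPM. The noncoding RNA roX2, which guides the complex in somatic cells, was at 78.8 and 84.4 CPM in the WT libraries and 22.4 and 22.8 CPM in the B9d1 KD libraries, which is 3.62-fold [3.38 to 3.87] lower, and roX1 was at 91.0 against 163 CPM. Among protein-coding genes by chromosome arm, 480 of 1847 X-linked genes were higher and 19.3% lower. On the 4 large autosome arms 28.2% to 29.5% were higher and 21.1% to 24.7% lower.

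Gene lists of the sperm differed among themselves, and only the sperm tail list was mostly lower. The 7 cysteine-rich sperm tail genes had a median of -2.77, with 6 lower, and Mst84Dd was at 1264 and 1232 CPM in the WT libraries and 181 and 175 CPM in the B9d1 KD libraries. Sperm chromatin genes were nearer to WT, with 1 of 7 lower and a median of -0.54 that becomes 0.05 with library size alone. That 1 gene was Mst77F at 3646 and 3645 CPM in the WT libraries and 1178 and 1177 CPM in the B9d1 KD libraries, whereas the transition protein gene Tpl94D was at 245 against 271 CPM, the protamine-like gene ProtB at 389 against 698 CPM and Mst33A at 543 against 516 CPM. Of 13 spermatid differentiation genes, 5 were lower and 2 higher (median -0.72). The sperm mitochondrial gene dj was at 513 against 1652 CPM and its relative djl at 618 against 1513 CPM. The 2 higher genes were fzo, the mitofusin that fuses spermatid mitochondria, at 269.7 and 267 CPM in B9d1 KD against 122 and 122 CPM in WT, and nmd, named for a defect of the spermatid mitochondria, at 107 against 48.1 CPM. Among the genes transcribed after meiosis, 6 of 15 cup and comet genes were lower and none higher, including d-cup at 47.9 against 252 CPM and soti at 384 against 1593 CPM. Of 8 sperm leucyl aminopeptidase genes 3 were lower and none higher (median -0.90). The summed level of the sperm tail genes was 2183 and 2199 CPM in B9d1 KD against 16644 and 16747 CPM in WT, and 6516, 2727 and 850.2 CPM in the other 3 groups. That of the tMAC genes, Caf1-55 included, was 965 and 942 CPM in B9d1 KD against 341 and 338 CPM in WT, and 606, 634 and 788 CPM in the others. These 2 sums do not by themselves separate the label of young spermatocytes from that of mature ones.

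Among genes of energy metabolism those of the mitochondrial genome were nearly all lower. The 28 measured genes of the mitochondrial genome were lower in 27 cases, with a median of -2.54, and this genome gave 1.75% and 1.76% of counts in B9d1 KD against 7.47% and 7.52% in WT. The one with the most counts, mt:CoI, was at 26639.9 and 26674 CPM in the WT libraries and 4424 and 4443 CPM in the B9d1 KD libraries, and in the other 3 groups at 7923, 8385 and 12579 CPM. Nuclear respiratory chain genes had a median of -0.29, with 8 of 67 lower and 1 higher, and that median becomes 0.30 with library size alone. Of 24 testis paralogs, 14 were lower and 2 higher (median -1.03), and the median kept its sign with library size alone, at -0.45. COX7AL was at 363 and 364 CPM in the WT libraries and 42.8 and 42.5 CPM in the B9d1 KD libraries, COX4L at 935 and 945 CPM in the WT libraries and 201 and 205 CPM in the B9d1 KD libraries and ND-24L at 74.1 against 368 CPM. In all 3 the WT libraries were several times above the B9d1 KD libraries. ATPsynepsilonL, one of the 2 that were higher, was at 47.3 and 49.0 CPM in B9d1 KD against 11.6 and 10.7 CPM in WT. Of 15 mitochondrial import genes 5 were lower and none higher, with a median of -0.39 that becomes 0.20 with library size alone. Of 18 glycolytic genes 8 were lower and none higher (median -0.94), including the testis phosphoglycerate mutase Pglym87 at 1806 and 1837 CPM in the WT libraries and 228 and 236 CPM in the B9d1 KD libraries, the testis hexokinase Hex-t2 at 449 against 1359 CPM and Ldh at 22.9 against 71.9 CPM.

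In the proteasome, testis-specific subunit genes were lower more often than their general counterparts. Of 15 testis-specific subunit genes 6 (40.0%) were lower and 1 higher, with a median of -0.41 that becomes 0.17 with library size alone. Of 31 general subunit genes 1 was lower and 6 (19.4%) were higher (median 0.14). Over all genes 27.3% were higher and 25.7% lower (median 0.08), so the general subunits were not higher more often than other genes. Prosbeta4R1 was at 240.3 and 245 CPM in the WT libraries and 59.5 and 60.6 CPM in the B9d1 KD libraries, and the general gene Prosbeta4 at 82.4 and 81.1 CPM in B9d1 KD against 23.1 and 22.1 CPM in WT. Here the testis copy was lower and the general copy higher in both B9d1 KD libraries. Prosalpha4T1 was at 76.4 against 217 CPM, and Rpt4R, the 1 higher testis copy, at 174 against 65.2 CPM. In the caspase and Cullin-3 pathway that strips spermatids of cytoplasm, 4 of 14 genes were higher and 5 lower, and the median of -0.31 becomes 0.28 with library size alone. The testis cytochrome c gene Cyt-c-d was at 181 against 683 CPM and the Cullin-3 partner gene Roc1b at 20.4 against 121 CPM. The caspase gene Dcp-1 was at 28.99 against 5.03 CPM and the apoptosome gene Dark at 147 against 37.0 CPM, both in the opposite direction.

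Y-linked genes listed for fertility, of which some span giant introns transcribed through the spermatocyte stage, had 5 of 12 members lower and 2 higher. ORY was at 41.4 and 45.4 CPM in the WT libraries and 3.43 and 4.07 CPM in the B9d1 KD libraries, CCY at 7.64 against 22.5 CPM and Ppr-Y at 5.90 against 14.7 CPM, whereas FDY was at 81.3 and 79.4 CPM in B9d1 KD against 22.02 and 21.4 CPM in WT. Pp1-Y1, a phosphatase gene, had 0 counts in WT, a limit of 0.103 CPM when 3 counts are allowed over the summed libraries, and was at 6.31 CPM in B9d1 KD, at least 61.3-fold higher.

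Transcripts of cells other than the germ line differed too, and their part in the results above was not tested. Of 26 measured accessory gland genes 23 were higher and none lower (median 4.33). Their summed level was 587 and 597 CPM in B9d1 KD against 51.7 and 50.9 CPM in WT, and 621, 3441 and 1699 CPM in the other 3 groups. Of these genes 2 had 0 counts in WT, and in B9d1 KD none did. Acp76A was at 17.0 and 18.5 CPM in B9d1 KD against 0.219 and 0.262 CPM in WT and Acp32CD at 21.4 and 22.3 CPM in B9d1 KD against 0.656 and 0.327 CPM in WT. Of 21 contractile genes of the muscle sheath 17 were lower and none higher (median -2.33), and their summed level was 1112 and 1121 CPM in B9d1 KD against 4728 and 4736 CPM in WT, with none at 0 in either group. The troponin gene TpnC47D was at 38.4 and 38.5 CPM in the WT libraries and 5.40 and 5.75 CPM in the B9d1 KD libraries and Mlp84B at 12.4 against 120.1 CPM.

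Somatic support cells gave a mixed picture. Of 15 hub and cyst cell genes 3 were lower and none higher, with a median of -0.29 that becomes 0.28 with library size alone, and a summed level of 796 and 785 CPM in B9d1 KD against 1026 and 1009.5 CPM in WT. The hub adhesion gene Fas3 was at 85.7 and 87.3 CPM in the WT libraries and 15.96 and 14.8 CPM in the B9d1 KD libraries and the ligand gene hh, which the hub sends to cyst cells, at 37.3 and 40.6 CPM in the WT libraries and 7.71 and 8.80 CPM in the B9d1 KD libraries. The cyst cell factors tj and eya, chosen after their values had been seen, were at 4.81 against 4.999 CPM and 39.5 against 45.0 CPM, and no member was at 0. Of 6 ejaculatory duct and bulb genes 4 were lower and none higher (summed level 112 and 110.1 CPM in B9d1 KD against 383 and 383 CPM in WT), with Est-6 at 30.8 against 286 CPM. Collagen IV of the basement membrane was lower, with vkg at 725 and 734 CPM in the WT libraries and 119 and 117 CPM in the B9d1 KD libraries and Col4a1 at 510.0 and 516 CPM in the WT libraries and 97.8 and 97.9 CPM in the B9d1 KD libraries, and SPARC, which helps deposit it, was at 37.8 against 207 CPM. The larger list of blood cell, fat body and basement membrane genes had 3 of 15 higher and 4 lower, and its median of -0.12 becomes 0.47 with library size alone. The blood cell gene Hml, also chosen after its value had been seen, was at 47.9 against 44.8 CPM.

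A small number of transcripts were high in B9d1 KD and in none of the other 4 groups. Of 8032 genes with at least 10 CPM in B9d1 KD, 10 (0.125%) were at least 4-fold above each of the others. The widest gap belonged to fne, an RNA-binding protein of the ELAV family known from neurons, at 16.4 and 15.99 CPM in B9d1 KD against 0.146 and 0.392 CPM in WT. The other 3 groups were at 0.776, 0.728 and 0.454 CPM, so its nearest level was 20.8-fold below. The posterior determinant of the oocyte, osk, was at 25.9 and 25.9 CPM in B9d1 KD against 1.02 and 0.785 CPM in WT, with 0.902, 2.48 and 1.01 CPM in the other 3 groups. Both lay far above every library of the other 4 groups. The annotation also places a noncoding RNA, lncRNA:osk, on the same strand as osk, so their reads cannot be told apart. Elsewhere the neuronal list had 4 of 19 genes higher and 3 lower, and its median of -0.04 becomes 0.55 with library size alone. Of 9 ciliated sensory neuron genes 4 were higher and 1 lower (median 0.07), but no higher one reached 5 CPM in either group. The members that did, boss, Gdap2 and eys, had log2 folds of -2.78, -0.58 and -0.32. The defining neuronal member of the ELAV family, elav, chosen after its value had been seen, was at 7.45 against 10.9 CPM. The oocyte list had 6 of 20 higher and 3 lower, and gurken (grk) was at 1.42 against 5.21 CPM.

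Separase (Sse) was also in this group, at 1.72, 3.66 and 3.22 CPM in the other 3 groups. The remaining 7 were CG9395 (10.8 against 0.0345 CPM, 1 count in WT), CG43191 (11.8 against 0.483 CPM), CG14321 (12.03 against 0.724 CPM), CG3104 (15.3 against 1.65 CPM), CG10738 (22.2 against 4.69 CPM), lncRNA:CR44126 (12.6 against 1.21 CPM) and lncRNA:CR45159 (19.0 against 0.655 CPM).

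**Figure D5:**
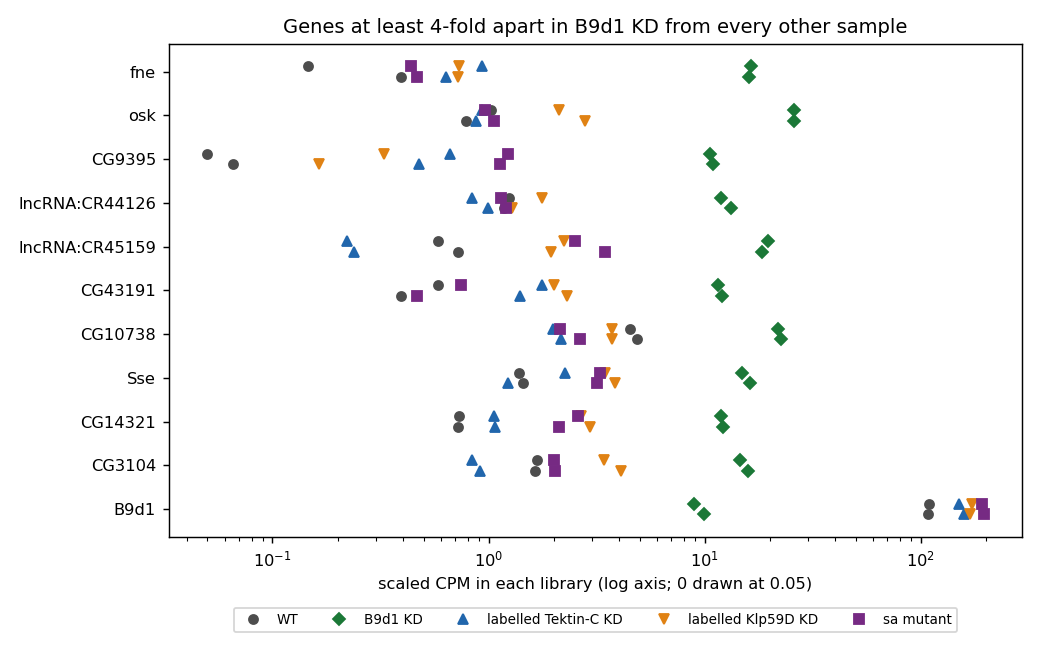
Scaled CPM (log axis) in each of the 10 libraries for the 10 genes at least 4-fold above, and the 1 gene at least 4-fold below, every other group in B9d1 KD; symbols mark the 5 groups. The B9d1 KD diamonds stand apart to the right for fne, osk and the 8 others, and to the left for B9d1.

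Against WT alone, the highest genes with at least 20 CPM were above WT in the other 3 groups too, osk by the least. CG9029, with 3 counts in WT, was at 49.4 against 0.103 CPM, and the other 3 groups were at 52.8, 263 and 65.4 CPM. The adhesion gene beat-Ic was at 31.0 against 0.207 CPM, 150.1-fold [68.8 to 409.6] higher, and at 5.602, 15.8 and 10.4 CPM elsewhere. Bili, an inhibitor of JAK/STAT signalling, was at 57.8 and 55.1 CPM in B9d1 KD against 1.75 and 1.96 CPM in WT, 30.3-fold [23.2 to 40.4] higher, and at 6.11, 14.1 and 4.87 CPM elsewhere. The sodium channel subunit gene tipE was at 31.5 against 1.17 CPM, CG12869, which overlaps Polr1A on the opposite strand, at 34.9 against 1.31 CPM, CG31872 at 93.6 against 2.41 CPM and CG17097 at 53.2 against 1.76 CPM, and the other 5 of these 12 were Ccdc114, osk and the accessory gland genes Mst57Da, Mst57Db and Acp32CD. The 12 lowest genes were all low in the other 3 groups as well. CG17917 was at 105 and 100.2 CPM in the WT libraries and 0.0365 and 0 CPM in the B9d1 KD libraries, where the 1 count in B9d1 KD gives a ratio of WT to B9d1 KD of 5917 [1061 to 233772]. Cpr66Cb, a cuticle protein gene, was at 22.8 CPM in WT and had 0 counts in B9d1 KD, at least 439.7-fold lower at 3 counts. CG42870 was at 21.2 CPM in WT and also had 0 counts, at least 408-fold lower. CG32457 was at 0.121 against 222 CPM, CG42827 at 0.657 against 336 CPM and CG12506 at 0.328 against 223 CPM. CG13946 and CG13947 were at 0.0346 against 56.8 CPM and 0.0864 against 96.0 CPM, CG43207 was at 0.0346 against 99.8 CPM, and the 3 scpr genes closed the list, of which scpr-A was at 3904 and 3835 CPM in the WT libraries and 2.59 and 2.1996 CPM in the B9d1 KD libraries.

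Gene structure went with the direction of the difference. Protein-coding genes had a median log2 fold of 0.17, with 28.4% of 11725 higher and 22.7% lower, whereas noncoding RNA genes had -0.55, with 42.0% of 1494 lower. Transfer RNA genes (44, median -1.82) and small nuclear RNA genes (28, median -1.06) were mostly lower, like the snoRNAs. The transfer RNA genes include those of the mitochondrial genome, whose genes were nearly all lower, and the nuclear ones were not looked at apart from them. Among protein-coding genes the median went from -0.32 in those with exons of 500 bp or less to 0.47 in those over 3000 and up to 5000 bp, and 149 of 406 of the former against 296 of 1851 of the latter were lower. In genes over 5000 bp the median fell back to 0.34, and 13.1% of 1392 were lower. Of genes with 1 exon block 36.4% were lower, of those with 6 to 10 blocks 18.6% and of those with over 10 blocks 19.0%. Their medians were -0.34, 0.34 and 0.11, so the median did not rise steadily with length or exon number. Over 500 and up to 1000 bp, 46.9% of 582 genes with 1 exon block were lower against 23.9% of 1395 with more. The shares were 38.9% and 35.5% at 500 bp or less, and 35.4% and 24.6% over 1000 and up to 1500 bp. Exons of 3971 measured genes overlap a gene on the opposite strand, and whether the authors' counting used strand is not given in the sources used here. Among the genes named here this holds for the cilium and microtubule genes Cby, Cep89, rempA, unc, ana1, Grip84, Grip91 and Grip128, for Nlp, Nop10, Nop17l, Nopp140, Polr1A, Polr1C, Polr2C, Rrp45, mRpL50, mRpS29, eIF2A, eIF2Balpha, eIF2Bepsilon, GluProRS, chico, Uhg1 and emb, for Hsp83, ctrip, Trf2, Klp61F, mad2, dup, PolA1, Panx, qin, bam, Dcr-2, twe, tbrd-3, msl-3, roX1, d-cup, Prosbeta4, Roc1b, Cyt-c-d, Dark, Dcp-1 and Est-6, and for AttC, osk, grk, elav, CG43191 and CG3104. Cc2d2a, Nop60B, RpL22, ctrip, tipE, elav and osk also overlap a gene on the same strand.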

How the data were processed

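RNA from whole testes was extracted on spin columns, depleted of ribosomal RNA and made into stranded libraries, per the labels' protocols. The authors deposited raw counts per gene for each library. The submitters' processing notes name STAR 2.5.1b, Trim Galore 0.4.1 and the build dm6. The sources used here do not give the counting program, its annotation, its strand setting or its treatment of reads that fit several places. Of 17412 identifiers, 17138 were matched to a symbol in the Ensembl release 115 annotation. No library column was left out.

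The 2 libraries of a group differed by about sampling noise, nothing says that they came from separate animals, and any p-value would measure only the spread between these libraries. They were summed, which replaces the planned edgeR test by values with counting error. Totals were scaled with the TMM factors of edgeR 4.0.16 in R 4.3.3 (0.756 for WT and 1.13 for B9d1 KD), giving 29006081 and 57842387 scaled counts. The 13831 genes with enough counts by edgeR's filter were measured, and log2 folds used a prior count of 2. Fold intervals are exact (Clopper-Pearson) at 95%, and a group at 0 counts was set to 3. Reads carry no molecular identifiers, so intervals and floors cover counting error only. At 3 counts the floor is 0.103 CPM in WT and 0.0519 CPM in B9d1 KD. The scaling and the 2-fold call were tried on counts simulated from WT levels, with few genes changed and as many up as down. The real groups differ far more broadly, so this trial could not test the scaling under such a difference.

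The comparison, the 64 gene lists and the genes were chosen with earlier results of these data known, and some lists were edited after values had been seen. Named are B9d1, the 12 highest and 12 lowest genes with at least 20 CPM in a group, and all transition zone and snoRNP members. From each other list up to 6 members are named, those with the largest absolute log2 folds among genes of at least 5 CPM. Such members are mostly the extremes of their lists and not typical ones. Also named are at most 10 genes 4-fold apart from all other groups, and the 10 genes with the most counts or the largest CPM difference. Same-numbered libraries deviated together from their group means, with correlations of 0.18 to 0.283 over 7962 genes in all pairs of groups and 0.219 for B9d1 KD and WT. The labels give only the shared number and say nothing of a shared culture or day. The alternatives were other scalings and filters, a different prior count, each library left out, and the edgeR and DESeq2 1.42.0 tests on single libraries. A planned description of promoter motifs was not run, as no sequence was at hand.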

Additional observations from a re-analysis of the deposited data

How the results depend on the processing

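The difference kept its size under most settings, where 7333 genes differed by 2-fold or more (3775 higher and 3558 lower). Scaling by library size alone gave 7936, of which 5665 were higher and 2271 lower, because the median of all genes then stood at 0.65 in place of 0.08. Relative log expression (RLE) size factors computed in edgeR gave 7323, and structural RNA and mitochondrial genes left out 7073. No filter gave 8300 and a filter of more than 5 CPM 5363. Scaling and filter set on the 4 compared libraries alone gave 6883 and a prior count of 0.5 7438. Leaving out each library in turn gave 7352 to 7396 apart, 3762 to 3907 higher and 3480 to 3593 lower. Treating single libraries as replicates, which compares these libraries and not the conditions, edgeR's quasi-likelihood test called 7227 genes at the same fold (3709 higher, 3518 lower) without a block and 7224 (3705 and 3519) with the replicate block, and DESeq2 called 6822 (3391 and 3431), with the adjusted p of 6 genes not given. Of 367 named genes at least 2-fold apart none changed direction under the other scalings, filters, prior count or left-out libraries where it could be measured (362 with the 5 CPM filter, 346 without structural RNA and mitochondrial genes), and 31 were no longer 2-fold apart with library size alone. These genes were mostly named for large folds, and the scalings shift folds by less than the 2-fold line. A change of direction could therefore hardly occur, and its absence is no support for the results. Of 128 list counts, 46 moved by over 1.5 times with library size alone, 12 with the 5 CPM filter, 4 with no filter, 5 without structural RNA and mitochondrial genes, 0 to 3 with a library left out, and 0 with the other scaling, the 4 libraries on their own or the other prior. The medians of the neuronal and ciliated sensory lists also changed sign with the 5 CPM filter and some left-out libraries, and that of the ribosomal protein paralogs with no filter. The cause was not tested. Below about 0.1 CPM in WT, folds rest on 3 counts or fewer.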

Other observations

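Defence and detoxification genes were lower in B9d1 KD testes. Of 25 measured antimicrobial peptide and immune recognition genes 23 were at least 2-fold lower and none higher (median log2 fold -1.73), with a summed level of 56.5 and 55.6 CPM in B9d1 KD against 247 and 250.4 CPM in WT and 89.3, 33.4 and 125 CPM in labelled Tektin-C KD, labelled Klp59D KD and sa mutant testes. The peptide genes AttC and AttB were at 66.6 and 67.8 CPM in the WT libraries and 2.92 and 3.35 CPM in the B9d1 KD libraries and at 0.640 against 19.4 CPM, and the recognition gene PGRP-SA, which senses bacterial walls, was at 1.78 against 19.1 CPM. Of 84 cytochrome P450 genes, which oxidise lipids and foreign compounds, 51 were lower and 10 higher (median -1.67), among them Cyp4g1, an enzyme of hydrocarbon synthesis in oenocytes, at 198 and 192 CPM in the WT libraries and 9.17 and 11.6 CPM in the B9d1 KD libraries, and Cyp6a17 at 2.49 against 53.7 CPM. Of 33 glutathione transferase genes, 22 were lower and 2 higher (median -1.40). GstD1 was at 469 and 467 CPM in the WT libraries and 69.9 and 67.2 CPM in the B9d1 KD libraries and GstD3 at 29.5 against 645 CPM, whereas GstS1, among the 10 genes with the most counts in B9d1 KD, was at 2934 against 2835 CPM. These families hold close copies, and single members are uncertain.

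Of 28 genes of the vacuolar ATPase, which acidifies vesicles, 10 were lower and 3 higher (median -0.64). The testis copy Vha36-2 was at 259.9 and 268 CPM in the WT libraries and 57.3 and 56.0 CPM in the B9d1 KD libraries and the general copy Vha36-1 at 81.6 and 82.9 CPM in the WT libraries and 21.0 and 22.8 CPM in the B9d1 KD libraries, so both were lower, and VhaAC39-2 was at 31.1 and 28.7 CPM in B9d1 KD against 7.07 and 6.08 CPM in WT. Among heat shock genes the direction was mixed, with 7 of 26 lower and 3 higher in flies kept at 30°C against 22°C, and the list median of -0.14 becomes 0.45 with library size alone. The cognate chaperone gene Hsc70-4 was at 1729 and 1738 CPM in the WT libraries and 499.7 and 498 CPM in the B9d1 KD libraries and the inducible gene Hsp70Ba, one of several close copies, at 15.5 and 20.2 CPM in the WT libraries and 2.45 and 4.498 CPM in the B9d1 KD libraries. The heat shock transcription factor gene Hsf was at 183 and 191 CPM in B9d1 KD against 68.3 and 63.2 CPM in WT and the small chaperone gene Hsp67Bc at 36.8 and 36.3 CPM in B9d1 KD against 4.96 and 4.77 CPM in WT. The chaperonin gene Hsp60D was at 116 against 614 CPM. Among neuronal genes the synaptic vesicle gene nSyb was at 41.6 and 41.1 CPM in the WT libraries and 5.26 and 5.15 CPM in the B9d1 KD libraries and the complexin gene cpx at 19.1 against 62.7 CPM, while Appl, the fly relative of the amyloid precursor, was at 15.99 against 3.52 CPM.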
